A study of Mus musculus with 6 samples.

Results

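The 10 genes described here make or control glucose output by the liver: *Pck1*, *G6pc*, *Fbp1* and *Pcx*, which encode enzymes of gluconeogenesis, *Ppargc1a*, *Foxo1*, the insulin receptor *Insr*, its adaptors *Irs1* and *Irs2*, and *Igfbp1*, a secreted protein whose gene insulin represses. They were taken by name and not by a cut on their values. Earlier results of these data were known when they, and the lists of related genes below, were chosen. Each symbol matched 1 of the 49671 gene IDs in the count table. All 10 passed the low-count filter, which left 16089 genes for testing. The RNA came from livers of 3 SHMT2 fl/fl and 3 SHMT2 HKO mice, all male and C57BL/6J. Each had eaten the AMLN diet (high in fat, fructose and cholesterol) for 18 weeks, starting at 4 weeks of age, and was fasted before harvest at 22 weeks. SHMT2 fl/fl mice (WT in the labels) carry *Shmt2*, the mitochondrial serine hydroxymethyltransferase gene, with loxP sites around its exons 3 to 12, and SHMT2 HKO mice (KO in the labels) carry the same floxed gene and an Albumin-Cre transgene. The study used Albumin-Cre to target hepatocytes. Whether the other liver cells of an SHMT2 HKO mouse all kept the floxed gene intact was not tested here. The labels do not say that WT means floxed without Cre, and it was read so from the strains the study describes. There was no chow-fed group in these data.

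In the fasted liver, pyruvate carboxylase (PCX) turns pyruvate into oxaloacetate, cytosolic phosphoenolpyruvate carboxykinase (PCK1) turns oxaloacetate into phosphoenolpyruvate, and fructose-1,6-bisphosphatase (FBP1) and glucose-6-phosphatase (G6PC) carry out the last irreversible steps to free glucose. Glucagon raises transcription of *Pck1* and *G6pc* through cAMP, CREB and the coactivator PGC-1α, the product of *Ppargc1a*. Insulin, through its receptor, the IRS adaptors and AKT, keeps FOXO1 out of the nucleus, and so lowers *G6pc*, *Pck1*, *Irs2* and *Igfbp1*, which are textbook FOXO1 targets. *Igfbp1* is therefore used as a transcript marker of hepatic insulin action, although it also answers to amino acid supply and cellular stress.

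Promoter sequence is given for the 4 genes around which the results turn, the classical hormone targets *Pck1*, *G6pc* and *Igfbp1*, and *Pcx*, the enzyme gene that differed between genotypes. RefSeq windows of the GRCm38.p6 build, 250 bases before the transcription start, matched 9 of the 10 genes, all but *Insr*. Those of the 4 genes are printed 5′ to 3′ on the gene's strand up to the base before the annotated gene. *Pcx* had 2 windows, and the second (chr19:4594069-4594318) lies inside the annotated gene and is not printed. Capitals mark matches to TGTTTTG or TATTTTG, cores of insulin response elements, on either strand (CAAAACA is TGTTTTG read on the other strand), and to ACGTCA, the core of a cAMP response element.
Pck1 (chr2:173152823-173153047, plus strand): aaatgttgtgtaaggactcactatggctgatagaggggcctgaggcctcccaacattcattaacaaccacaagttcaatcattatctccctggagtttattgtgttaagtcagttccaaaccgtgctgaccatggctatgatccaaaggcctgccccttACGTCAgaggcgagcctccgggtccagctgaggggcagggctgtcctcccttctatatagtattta
G6pc (chr11:101367466-101367560, plus strand): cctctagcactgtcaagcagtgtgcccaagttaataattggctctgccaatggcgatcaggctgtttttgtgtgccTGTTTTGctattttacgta
Igfbp1 (chr11:7197537-7197781, plus strand): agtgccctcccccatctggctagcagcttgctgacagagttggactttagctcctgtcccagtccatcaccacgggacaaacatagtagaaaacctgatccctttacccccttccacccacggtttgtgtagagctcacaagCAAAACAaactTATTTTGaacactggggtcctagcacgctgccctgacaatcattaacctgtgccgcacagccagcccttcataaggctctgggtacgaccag
Pcx (chr19:4510222-4510471, plus strand): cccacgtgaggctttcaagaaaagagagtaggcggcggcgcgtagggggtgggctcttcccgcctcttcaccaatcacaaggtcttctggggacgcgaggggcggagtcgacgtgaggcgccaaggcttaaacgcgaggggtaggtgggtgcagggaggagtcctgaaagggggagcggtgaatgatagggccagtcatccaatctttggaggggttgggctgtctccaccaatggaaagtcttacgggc

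The *Pck1* window held ACGTCA at 91 to 86 bases before the RefSeq start, and the *G6pc* window held TGTTTTG at 174 to 168 bases. *Igfbp1* held TGTTTTG on the opposite strand at 108 to 102 bases and TATTTTG at 97 to 91 bases, so that both cores lay close together. *Pcx* (in either window), *Fbp1* and *Foxo1* held none of the letters searched. Among the windows not printed, *Irs1* held TGTTTTG at 111 to 105 and at 32 to 26 bases, *Irs2* held it at 37 to 31 bases, and *Ppargc1a* held ACGTCA at 50 to 45 bases. Of 32851 promoter windows of this length, 9.14% held either insulin response core (5.56% TGTTTTG, 3.95% TATTTTG) and 6.47% held ACGTCA. The FoxO core GTAAACA (3.17% of windows) and TGACGTC (2.78%) were in no window of the 9 genes. Such matches describe the letters of the sequence and are not evidence of a bound factor.

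The libraries held 23090837 to 34089722 counts on genes. *Shmt2* itself was at 94.6, 109 and 94.0 CPM (counts scaled to a common library size, here normalised by TMM, the trimmed mean of M values) in SHMT2 fl/fl mice 1, 2 and 3 and at 24.9, 28.3 and 19.3 CPM in SHMT2 HKO mice 1, 2 and 3, a log2 fold change of −2.04 (adjusted p = 0.000639, edgeR quasi-likelihood test), so no library went against its label. Of all genes tested, 2012 were called higher and 2651 lower in SHMT2 HKO livers at an adjusted p under 0.05, which is 12.5% and 16.5% of genes. That split depended on the scaling. It was 539 higher and 4923 lower by library size alone. With libraries scaled to the ERCC spike-in RNAs it was 107 higher and 2759 lower. The median log2 fold change of all genes was 0.03 under TMM, −0.40 by library size alone and −0.69 under ERCC scaling. Fewer genes were called lower under ERCC scaling than by library size alone, although this median was lower still, and the cause was not tested. The spike-ins took 1.42% to 1.84% of counts in SHMT2 fl/fl and 1.35% to 2.75% in SHMT2 HKO libraries. SHMT2 HKO mouse 1 stood apart from the other 2 of its group on the second principal component, which held 19.4% of the variance.

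With TMM, *Pcx* and *Insr* were called higher and *Igfbp1* lower in SHMT2 HKO livers, and the other 7 were not called. That is 30.0% of the genes beside 29.0% of all genes tested, so the group as a whole was called about as often as any gene of this table. Their median log2 fold change was 0.04, beside 0.03 over all genes. The 3 called genes were also the 3 whose values did not overlap between genotypes, which 46.9% of all genes did not (21.9% higher and 25.0% lower in SHMT2 HKO). In the plot of CPM by mouse, *Pck1*, *Fbp1*, *G6pc* and the adaptors lie over each other in both genotypes.

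**Figure D1:**
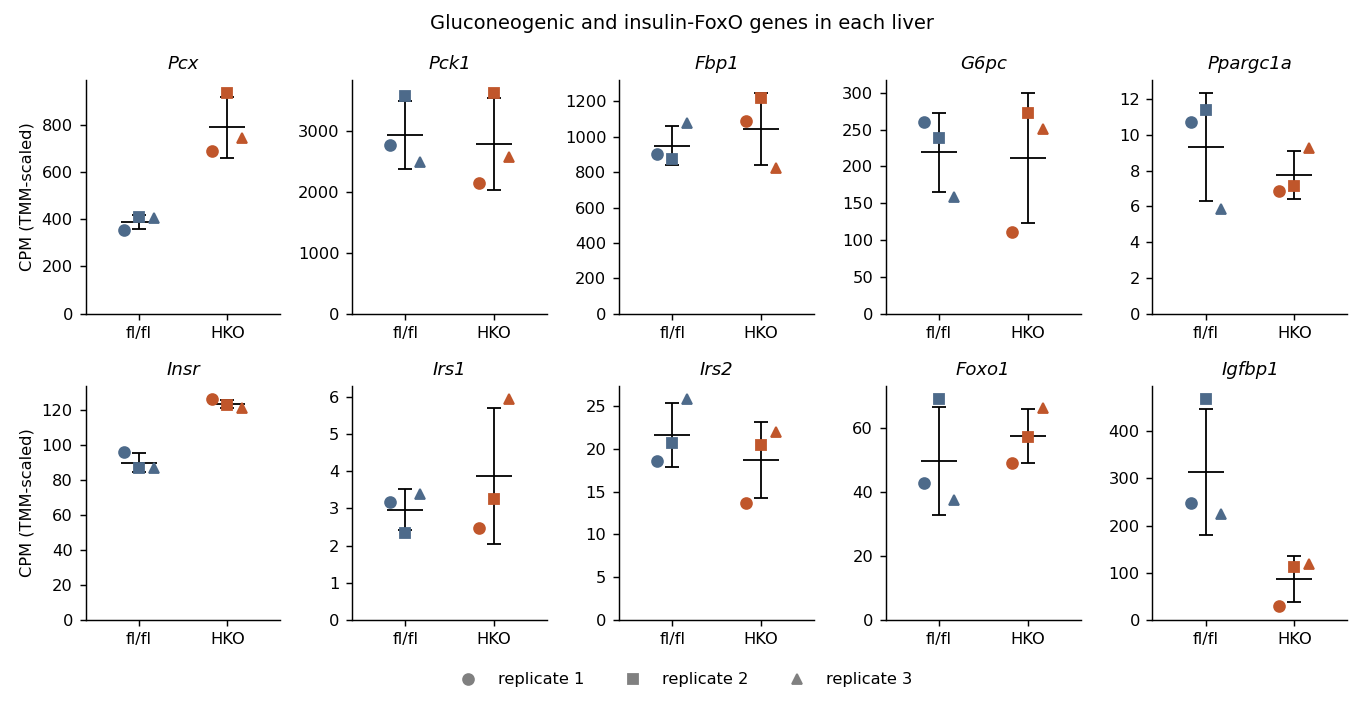
CPM (TMM-scaled) of each of the 10 genes in the 3 SHMT2 fl/fl (fl/fl, blue) and 3 SHMT2 HKO (HKO, orange) livers; symbols give the replicate number, which does not pair mice across genotypes, and bars the mean ± SD. With this scaling *Pcx* and *Insr* are higher and *Igfbp1* lower in all SHMT2 HKO mice (*Pcx* overlaps under ERCC scaling, and *Insr* under ERCC scaling and by library size alone), and the values of the other 7 genes overlap.

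*Pcx* (ENSMUSG00000024892, GRCm38 chr19:4510472-4621752, plus strand), the entry step of gluconeogenesis from pyruvate and also a source of oxaloacetate for the citric acid cycle and for lipid synthesis, had about 2-fold more transcript in SHMT2 HKO livers. It was at 356, 410 and 405 CPM in SHMT2 fl/fl mice 1 to 3 and at 689, 935 and 746 CPM in SHMT2 HKO mice 1 to 3. The lowest SHMT2 HKO value was well above the highest SHMT2 fl/fl value. The log2 fold change was 1.02 (95% interval 0.63 to 1.41, n = 3 per group, adjusted p = 0.00443, edgeR). The adjusted p ranged from 0.00249 to 0.0271 when each mouse was left out in turn. Under ERCC scaling the log2 fold change was 0.30 and not called (adjusted p = 0.603). Set against the median of all genes, *Pcx* was 0.99 higher on the log2 scale under TMM, library size and ERCC scaling alike. A change of scaling moves all genes by nearly the same amount, so this distance adds no support to the call.

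*Pck1* (ENSMUSG00000027513, chr2:173153048-173159273, plus strand), which catalyses the step often called rate-limiting, was among the most abundant of these transcripts and did not differ detectably. It was at 2772, 3576 and 2500 CPM in SHMT2 fl/fl mice and at 2156, 3633 and 2586 CPM in SHMT2 HKO mice. The second mouse of either group was the highest, and the SHMT2 HKO values spanned the whole SHMT2 fl/fl range. The log2 fold change of −0.08 had an interval of −0.65 to 0.49 (adjusted p = 0.834, edgeR), which leaves room for a fold change between 0.639 and 1.40.

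*G6pc* (ENSMUSG00000078650, chr11:101367561-101377903, plus strand), the catalytic subunit that releases glucose, was at 260, 239 and 158 CPM in SHMT2 fl/fl mice and at 111, 273 and 251 CPM in SHMT2 HKO mice. SHMT2 HKO mouse 1 was the lowest of all 6 and the other 2 SHMT2 HKO mice lay in the upper part of the range. This was a log2 fold change of −0.05 (interval −0.83 to 0.73, adjusted p = 0.925, edgeR), and it was 0.26 without SHMT2 HKO mouse 1.

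*Fbp1* (ENSMUSG00000069805, chr13:62864753-62888282, minus strand), which removes a phosphate from fructose-1,6-bisphosphate, was at 902, 872 and 1078 CPM in SHMT2 fl/fl mice and at 1092, 1220 and 822 CPM in SHMT2 HKO mice. SHMT2 HKO mouse 3 was the lowest of the 6 and SHMT2 HKO mouse 2 the highest. Its log2 fold change was 0.14 (interval −0.31 to 0.58, adjusted p = 0.636, edgeR). Thus 1 of the 4 enzyme genes was called, *Pcx*, beside 29.0% of all genes tested.

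*Ppargc1a* (ENSMUSG00000029167, chr5:51454250-51567726, minus strand), whose product coactivates HNF4α and FOXO1 on gluconeogenic promoters in fasting, was a low transcript in both genotypes. It was at 10.7, 11.4 and 5.87 CPM in SHMT2 fl/fl mice and at 6.83, 7.14 and 9.29 CPM in SHMT2 HKO mice. SHMT2 fl/fl mice 1 and 2 were higher than every SHMT2 HKO mouse and SHMT2 fl/fl mouse 3 was lower than all of them. The log2 fold change was −0.26 (interval −0.88 to 0.35, adjusted p = 0.500, edgeR).

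*Insr* (ENSMUSG00000005534, chr8:3122061-3279617, minus strand), the insulin receptor, was the least variable of the 10 genes within SHMT2 HKO livers, with an SD of 0.03 on the log2 scale. It was at 96.2, 86.5 and 86.7 CPM in SHMT2 fl/fl mice and at 126, 123 and 121 CPM in SHMT2 HKO mice. All SHMT2 HKO values were above all SHMT2 fl/fl values. In log2 terms the difference was 0.46 (interval 0.21 to 0.71, adjusted p = 0.0171, edgeR), about 1.37-fold. The call rests on the scaling and on single controls: the log2 fold change was 0.03 by library size alone (adjusted p = 0.867) and −0.27 under ERCC scaling (adjusted p = 0.673), and the adjusted p was 0.0814 without SHMT2 fl/fl mouse 2 and 0.0871 without SHMT2 fl/fl mouse 3. Relative to the median of all genes it was 0.43 higher under each of these 3 scalings. As for *Pcx*, scaling hardly changes this distance, which adds no support to the call.

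The adaptors that carry the signal from the receptor did not differ detectably. *Irs1* (ENSMUSG00000055980, chr1:82233101-82291416, minus strand) was the lowest of the 10 genes, at 3.18, 2.33 and 3.39 CPM in SHMT2 fl/fl mice and at 2.46, 3.24 and 5.94 CPM in SHMT2 HKO mice, which are 58 to 151 counts a library. Only SHMT2 HKO mouse 3 lay above the SHMT2 fl/fl range, and the log2 fold change of 0.39 (interval −0.41 to 1.19, adjusted p = 0.444, edgeR) was −0.09 without that mouse. *Irs2* (ENSMUSG00000038894, chr8:10984681-11008458, minus strand), the adaptor that fasting raises through FOXO1, was at 18.5, 20.7 and 25.8 CPM in SHMT2 fl/fl mice and at 13.6, 20.4 and 22.0 CPM in SHMT2 HKO mice. Its log2 fold change was −0.21 (interval −0.69 to 0.26, adjusted p = 0.474, edgeR), with overlapping values. *Irs1* shares 2822 exonic bases with the antisense gene *Gm9747*, *Irs2* 162 with *9530052E02Rik* and *Foxo1* 674 with *Gm20402*, and since the use of strand in counting is not given in the sources used here, reads of either partner cannot be told apart.

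*Foxo1* (ENSMUSG00000044167, chr3:52268336-52353221, plus strand), the transcription factor that insulin inhibits by phosphorylation rather than by its transcript level, was at 42.7, 69.0 and 37.5 CPM in SHMT2 fl/fl mice and at 49.1, 57.2 and 66.0 CPM in SHMT2 HKO mice. The highest and the lowest values of all 6 were both in SHMT2 fl/fl livers. Between genotypes the log2 fold change was 0.21 (interval −0.32 to 0.74, adjusted p = 0.532, edgeR). RNA counts carry no information on the phosphorylation or location of the protein.

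*Igfbp1* (ENSMUSG00000020429, chr11:7197782-7202546, plus strand), the insulin-repressed target whose promoter held both insulin response cores, showed the largest difference of the 10 genes. It was at 247, 468 and 225 CPM in SHMT2 fl/fl mice and at 30.1, 113 and 117 CPM in SHMT2 HKO mice. Every SHMT2 HKO liver was below every SHMT2 fl/fl liver, but the values spread widely within both genotypes, with SHMT2 fl/fl mouse 2 high and SHMT2 HKO mouse 1 low. The log2 fold change was −1.85 (interval −3.11 to −0.59, adjusted p = 0.0391, edgeR), a fold change of 0.277. The direction held in all 16 alternatives, but the adjusted p rose to between 0.0650 and 0.126 when SHMT2 fl/fl mouse 1, 2 or 3 or SHMT2 HKO mouse 2 or 3 was left out, and to 0.195 without the low-count filter. Without SHMT2 HKO mouse 1, the lowest, the log2 fold change was −1.44 and the adjusted p 0.0108.

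The other textbook FOXO1 targets named above did not move with *Igfbp1*: *G6pc*, *Pck1* and *Irs2* had log2 fold changes of −0.05, −0.08 and −0.21, none of them called. SHMT2 HKO mouse 1 was nonetheless the lowest of its group for 8 of the 10 genes, all but *Fbp1* and *Insr*, beside 35.3% of all genes for which it was the lowest. No other mouse was the lowest of its group for more than 5 of the 10. *Pck1*, *G6pc*, *Irs2* and *Igfbp1* had their lowest value of all 6 livers in this mouse.

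Cell type markers differed between genotypes as well. The 7 hepatocyte markers analysed here summed to 58871 to 72740 CPM in SHMT2 fl/fl and 69669 to 103695 CPM in SHMT2 HKO livers, with 2 of 7 called higher. Cholangiocyte markers summed to 951 to 1181 CPM in SHMT2 fl/fl and 128 to 245 CPM in SHMT2 HKO livers, with all 5 called lower. Stellate cell and fibroblast markers summed to 1217 to 1298 against 306 to 800 CPM (4 of 7 lower, 1 higher), lymphocyte markers to 35.7 to 55.7 against 13.9 to 22.6 CPM (4 of 6 lower), macrophage markers to 215 to 337 against 342 to 440 CPM (2 of 7 higher, 2 lower) and endothelial markers to 160 to 185 against 227 to 266 CPM (2 of 6 higher). Of all genes tested, 12.5% were called higher and 16.5% lower. No marker was at 0 in all libraries. Their part in the values of *Pcx*, *Insr*, *Igfbp1* and the lists below was not tested, and in whole liver fewer cells of a type and less RNA per cell cannot be told apart.

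Scaling moved the 10 genes together. By library size alone 1 of them was called higher (*Pcx*) and under ERCC scaling none was, while *Igfbp1* was called lower under both, with log2 fold changes of −2.24 and −2.33. Relative to the median of all genes *Igfbp1* was lower by −1.88 under TMM, −1.85 by library size alone and −1.64 under ERCC scaling on the log2 scale. Since scaling moves most genes nearly alike, these distances add no support to the call. *Fbp1* and *Foxo1* changed sign with the scaling, at −0.31 and −0.20 by library size alone and −0.68 and −0.39 under ERCC scaling, and were called under neither.

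**Figure D2:**
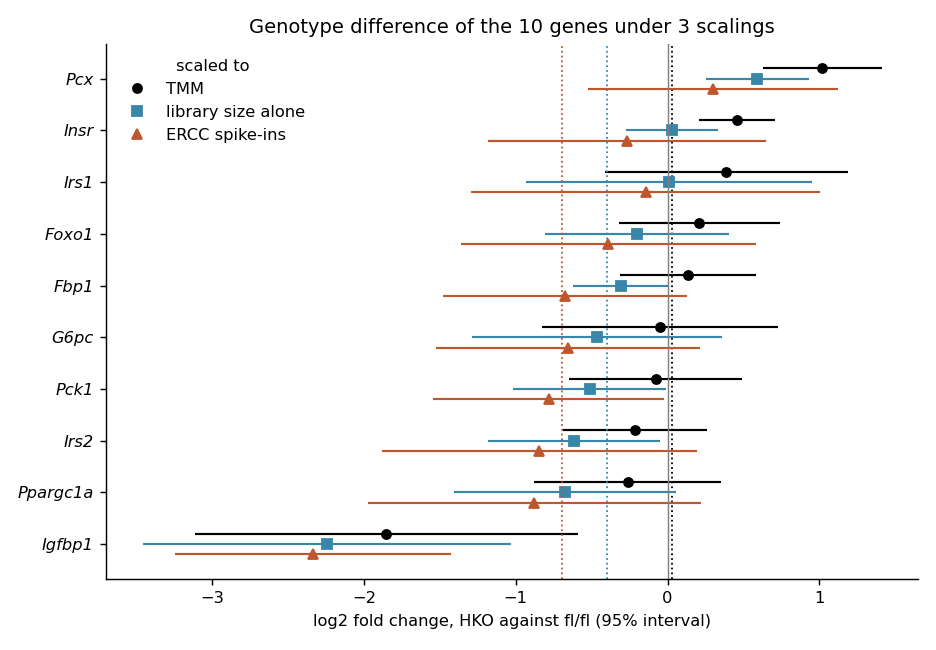
log2 fold change of SHMT2 HKO against SHMT2 fl/fl livers for each of the 10 genes with its 95% interval (horizontal lines), scaled by TMM (black circles), by library size alone (blue squares) or to ERCC spike-ins (orange triangles); dotted lines mark the median of all genes under each scaling, at 0.03, −0.40 and −0.69. *Igfbp1* stays to the left of 0 and of the dotted lines under all 3, and *Pcx* to the right of the dotted lines.

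The levels of the 10 transcripts, in CPM per kb of exon, spanned more than 3 orders of magnitude. In SHMT2 fl/fl livers the order was *Pck1* at 860 ± 163 (SD, n = 3), *Fbp1* at 559 ± 65.3, *Igfbp1* at 206 ± 88.2, *G6pc* at 90.8 ± 22.2, *Pcx* at 82.1 ± 6.27, *Insr* at 6.53 ± 0.402, *Foxo1* at 5.74 ± 1.95, *Irs2* at 3.43 ± 0.593, *Ppargc1a* at 1.42 ± 0.457 and *Irs1* at 0.325 ± 0.0613. The enzymes and the secreted protein thus stood above the receptor, adaptors and regulators. Within this order *G6pc* and *Pcx*, and *Insr* and *Foxo1*, overlapped with their neighbour, and the other neighbours did not. In SHMT2 HKO livers *Pcx* was the third at 166 ± 27.1 CPM per kb and *Igfbp1* the fifth at 56.9 ± 32.2, and the other 8 genes kept their order among themselves. There *Pck1* (814 ± 222) and *Fbp1* (614 ± 119) overlapped, as did *G6pc* (87.7 ± 36.5) and *Igfbp1*.

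With TMM, the other enzymes and carriers of gluconeogenesis and glycolysis around these genes were called far more often. Of 24 genes, 22 passed the filter (*G6pc2* and *Fbp2* did not), and 14 were called higher and 2 lower, 72.7% beside 29.0% of all genes. Their median log2 fold change was 0.64, and it was 0.21 by library size alone and −0.11 under ERCC scaling, so that its sign followed the scaling. When scaled to ERCC, 1 of the 22 was called higher and 1 lower, beside 107 higher and 2759 lower of 16089 genes. There the list was not called more often than all genes. Fewer of the 22 were called higher by library size alone as well. Under each of the 5 scalings 19 of the 22 lay above the median of all genes, a count that scaling could hardly change. The number called higher was 5 without SHMT2 fl/fl mouse 1 or 3 and 6 without SHMT2 fl/fl mouse 2 or SHMT2 HKO mouse 2. Of all genes, 936, 805, 861 and 1129 were called higher in these fits, in the same order, beside 2012 with all mice. *Pklr*, liver pyruvate kinase, which undoes the combined work of PCX and PCK1, was at 169, 134 and 115 CPM in SHMT2 fl/fl and 386, 511 and 598 CPM in SHMT2 HKO mice (log2 fold change 1.83, adjusted p = 0.00140, edgeR), and it was called under ERCC scaling too. *Pfkfb1*, the bifunctional enzyme that sets fructose-2,6-bisphosphate, was at 24.8, 33.3 and 30.1 against 49.2, 81.3 and 60.5 CPM (1.11, adjusted p = 0.00560, edgeR), and at 0.41 and not called under ERCC scaling.

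*Slc37a4*, the carrier that brings glucose-6-phosphate to G6PC, was called higher, with a log2 fold change of 0.63 (adjusted p = 0.0370, edgeR) that turned to −0.10 under ERCC scaling and was called in 9 of the 16 alternatives. Both genes called lower are paralogs of members. *Pck2*, the mitochondrial PEP carboxykinase, was at 28.0, 34.2 and 31.5 CPM in SHMT2 fl/fl and 7.68, 10.3 and 15.8 CPM in SHMT2 HKO mice (log2 fold change −1.47, adjusted p = 0.00435, edgeR), and was called lower in all 16 alternatives. *G6pc3*, the ubiquitous glucose-6-phosphatase, was at 16.4, 17.3 and 16.7 against 12.3, 13.7 and 11.8 CPM (−0.42, adjusted p = 0.0402, edgeR), but was called in 7 of the 16 alternatives and in none that left out a mouse (adjusted p 0.0550 to 0.127). Thus *Pck2* and *Pck1*, which make the same product in different compartments, had log2 fold changes of −1.47 and −0.08.

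**Figure D3:**
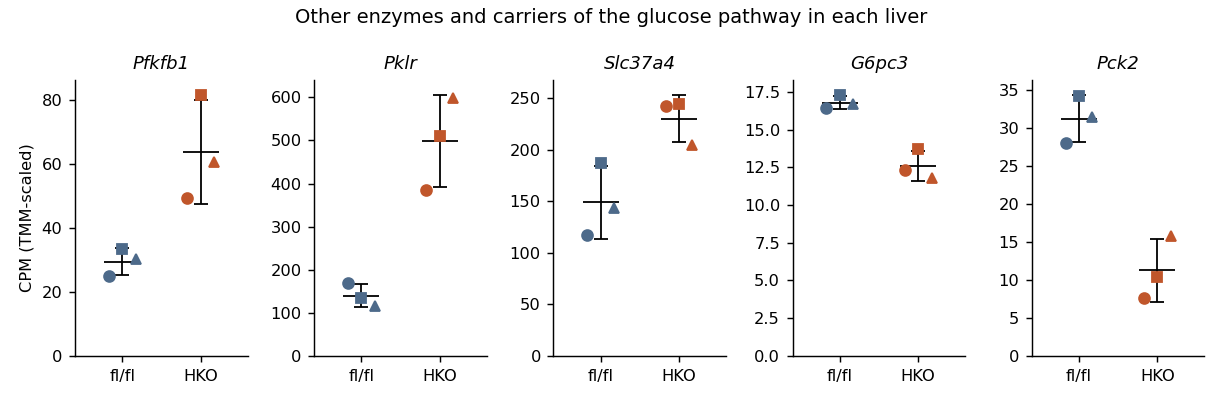
CPM (TMM-scaled) of 5 further genes of the glucose pathway in the 3 SHMT2 fl/fl (blue) and 3 SHMT2 HKO (orange) livers, with mean ± SD. With this scaling *Pfkfb1*, *Pklr* and *Slc37a4* are higher and *G6pc3* and *Pck2* lower in SHMT2 HKO livers, without overlap. Under ERCC scaling the values of *Pfkfb1*, *Pklr* and *Slc37a4* overlap between genotypes, and those of *Slc37a4* also by library size alone.

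Beyond the receptor and adaptors, most genes of insulin signalling were not called. Of 34 genes tested, 3 were called higher and 3 lower (17.6%, beside 29.0% of all genes), and the median log2 fold change was 0.10, which turned to −0.31 by library size alone and −0.59 under ERCC scaling. The genes called higher were *Ceacam1*, which promotes insulin clearance by the liver (0.83, adjusted p = 0.00385, edgeR), *Pik3cb*, a catalytic subunit of PI3-kinase (0.52, adjusted p = 0.0162, edgeR), and *Akt2*, the main AKT of hepatocytes (0.46, adjusted p = 0.0406, edgeR). *Pik3cb* and *Akt2* turned to −0.18 and −0.30 under ERCC scaling, where *Ceacam1* was at 0.07 (adjusted p = 0.919). *Akt2* was called in 5 of the 16 alternatives, with adjusted p-values up to 0.144 when 1 mouse was left out. The genes called lower all encode proteins known to restrain the pathway: *Socs1*, which targets IRS proteins (−1.43, adjusted p = 0.00634, edgeR), the AKT-binding pseudokinase *Trib3* (−1.24, adjusted p = 0.0112, edgeR) and the receptor-binding adaptor *Grb10* (−1.10, adjusted p = 0.0209, edgeR). *Socs1* was at 2.48 to 3.06 CPM in SHMT2 fl/fl and 0.912 to 1.19 CPM in SHMT2 HKO livers. *Akt1* (−0.35, adjusted p = 0.0553) and the regulatory subunit *Pik3r1* (0.41, adjusted p = 0.232) were not called by the same test.

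FoxO factors and their known targets, apart from the 10 genes, were called about as often as all genes. Of 18 tested, 4 were called higher and 2 lower (33.3%, beside 29.0% of all genes), with a median log2 fold change of −0.07 that was −0.48 by library size alone and −0.75 under ERCC scaling. The largest increases were in *Apoc3* (1.16, adjusted p = 0.0167, edgeR) and *Mttp* (1.04, adjusted p = 0.00231, edgeR), which serve the assembly and turnover of VLDL and which FOXO1 is known to raise, and in the peroxisomal catalase *Cat* (0.95, adjusted p = 0.00899, edgeR). Under ERCC scaling these 3 genes were at 0.25, 0.36 and 0.16 and not called. The pro-apoptotic *Bcl2l11* was lower (−1.04, adjusted p = 0.0138, edgeR). *Foxo6* was lower too, but held 16, 30 and 24 counts in SHMT2 fl/fl and 2, 0 and 2 counts in SHMT2 HKO libraries, near the floor of 3 counts. *Foxo3* (−0.02, adjusted p = 0.965) and *Pdk4*, a fasting-induced target (0.73, adjusted p = 0.347), were not called by the same test, and *Pdk4* ranged from 8.87 CPM in SHMT2 HKO mouse 1 to 44.4 CPM in SHMT2 HKO mouse 3.

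Of 28 genes of glucagon, cAMP and transcriptional control, 3 were called higher and 1 lower (14.3%, beside 29.0% of all genes). Their median log2 fold change of 0.23 turned to −0.20 by library size alone and −0.46 under ERCC scaling. Those called higher were the hepatocyte factors *Foxa2* (0.81, adjusted p = 0.00444, edgeR) and *Cebpa* (0.72, adjusted p = 0.00901, edgeR) and the glucagon receptor *Gcgr* (0.68, adjusted p = 0.0125, edgeR), which turned to −0.10 under ERCC scaling. *Foxa2* and *Cebpa* were at 0.04 (adjusted p = 0.960) and 0.03 (adjusted p = 0.967) under that scaling. *Sik1*, a cAMP-induced kinase that restrains CRTC2, was at 66.1, 79.6 and 66.0 CPM in SHMT2 fl/fl and 25.9, 46.1 and 36.7 CPM in SHMT2 HKO mice (−0.96, adjusted p = 0.0106, edgeR). *Creb1* (−0.24), *Crtc2* (0.07), *Nr3c1*, the glucocorticoid receptor (0.25), *Hnf4a* (0.41) and *Cebpb* (0.33) were not called, at adjusted p-values of 0.356, 0.692, 0.146, 0.101 and 0.574 (edgeR).

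*Igfbp1* belongs to the insulin-like growth factor system, of which 11 further genes were tested. Of these, 2 were called higher and 2 lower (36.4%, beside 29.0% of all genes). Their median log2 fold change of 0.03 turned to −0.38 and −0.60 under the same 2 scalings. *Igfals*, which encodes the acid-labile subunit of the circulating IGF complex, was at 46.8, 55.5 and 49.3 CPM in SHMT2 fl/fl and 131, 118 and 72.7 CPM in SHMT2 HKO mice (1.08, adjusted p = 0.00776, edgeR), and at 0.23 and not called under ERCC scaling. *Igf1* itself was higher under TMM (0.53, adjusted p = 0.0422, edgeR) and at −0.26 under ERCC scaling, and was called in 5 of the 16 alternatives, with adjusted p-values up to 0.135 when 1 mouse was left out. *Igfbp7* was at 445, 553 and 578 against 117, 157 and 214 CPM (−1.69, adjusted p = 0.00229, edgeR) and the receptor *Igf1r* at 12.9, 20.3 and 14.5 against 6.66, 4.25 and 7.32 CPM (−1.38, adjusted p = 0.00612, edgeR). Both were called lower in all 16 alternatives. Of the marker sums given above, those of cholangiocytes, stellate cells and lymphocytes were lower and those of hepatocytes, macrophages and endothelial cells mostly or wholly higher. A link of *Igfbp7* or *Igf1r* to any of them was not tested. *Igfbp2*, the other binding protein of the liver that insulin lowers, was at 574 to 971 CPM in SHMT2 fl/fl and 526 to 670 CPM in SHMT2 HKO livers (−0.48, adjusted p = 0.148, edgeR).

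Genes of the insulin-induced lipogenic arm were higher, a pattern known from earlier results of these data. With TMM, 8 of 9 were called higher and none lower (88.9%, beside 29.0% of all genes). Their median log2 fold change of 1.58 stayed above 0 under ERCC scaling (0.80). There 2 of 9 were called higher, beside 107 of 16089 genes. The largest differences were in *Pnpla3* (2.85, adjusted p = 0.00434, edgeR), *Thrsp* (2.81, adjusted p = 0.00517, edgeR) and *Me1* (1.86, adjusted p = 0.00842, edgeR), all targets of SREBP-1c or ChREBP. *Srebf1*, the gene of SREBP-1c, was not called (0.57, adjusted p = 0.0553, edgeR). Set beside the 10 genes, the insulin-induced lipogenic transcripts were higher and the insulin-repressed *Igfbp1* lower, while the insulin-repressed *G6pc*, *Pck1* and *Irs2* were not called. A link of these values to insulin action was not tested. On the AMLN diet, the study reported higher fasting glucose, poorer glucose disposal and less insulin sensitivity in SHMT2 HKO than in control mice.

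**Figure D4:**
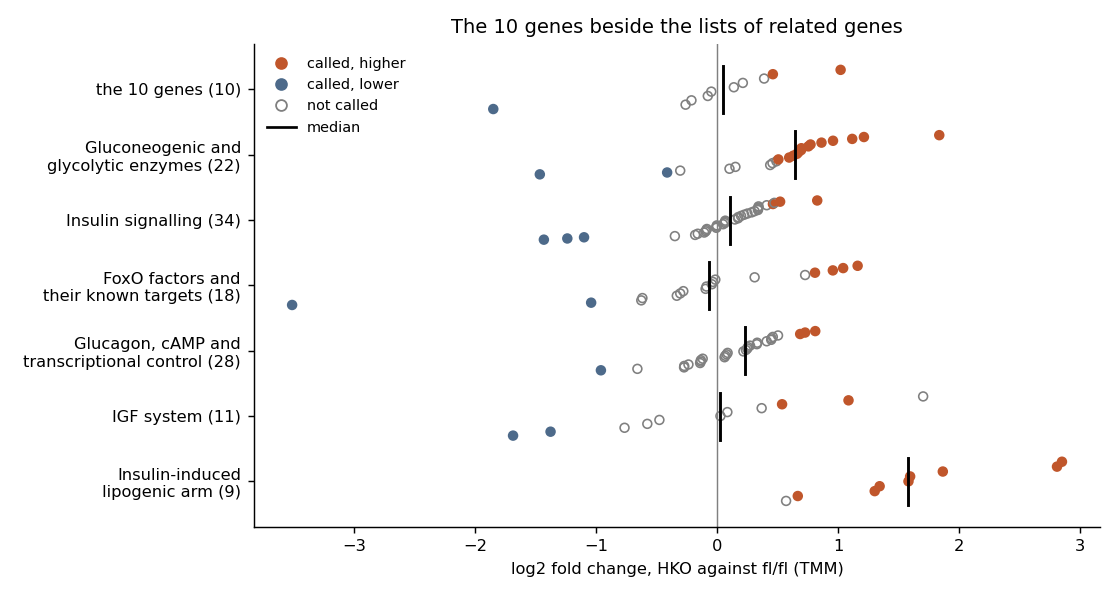
log2 fold change (TMM) of every tested gene in the 10-gene group and in 6 lists of related genes, with the number tested in brackets; filled points were called at an adjusted p under 0.05 (orange higher, blue lower in SHMT2 HKO), open points were not, and black bars are medians. The gluconeogenic and glycolytic enzymes (median 0.64) and the lipogenic arm (1.58) lie to the right, and the 10 genes are centred near 0 (0.04).

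Profiles over the 6 mice were compared by the root mean square difference of log2 CPM, each gene centred on its own mean, among 12311 candidate genes. The genes most like *Pck1* were *Med18* (0.0931), *1700052K11Rik* (0.0938) and *Bbc3* (0.101), where the median over all candidates was 0.394. Those most like *G6pc* were *Arl4d* (0.159), *C5ar2* (0.173) and *Defb1* (0.174), with a median of 0.555. For *Igfbp1* they were *Fmo2* (0.239), *Cyp2c55* (0.329) and *Iqgap3* (0.341), with a median of 1.28. *Fmo2* had the same high SHMT2 fl/fl mouse 2 (144 CPM, beside 66.8 and 77.0) and low SHMT2 HKO mouse 1 (13.8 CPM, beside 40.0 and 44.5). Among the 10 genes the closest profiles were those of *Fbp1* and *Insr* (0.263), *Pck1* and *Foxo1* (0.296) and *Pck1* and *Irs2* (0.316).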

How the data were processed

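Per the labels and the methods of the study, total RNA of 6 livers was sequenced with ERCC spike-ins. The authors trimmed reads with Trimmomatic 0.36, aligned them to GRCm38 with STAR 2.5.2b and counted unique hits per gene with featureCounts of Subread 1.5.2. The deposited values are raw counts per gene and sample. Columns were assigned to genotypes by their titles, with labels WT read as SHMT2 fl/fl and KO as SHMT2 HKO.

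The 92 ERCC entries were left out of library sizes. Of 49671 gene IDs, 49326 matched a symbol in GENCODE vM21 (GRCm38). Genes were filtered with filterByExpr, TMM-scaled and tested with the two-sided quasi-likelihood F test (robust) of edgeR 4.0.16 in R 4.3.3, with Benjamini-Hochberg adjustment over all genes tested and a threshold of 0.05. Every adjusted p-value in the text is from this test unless another setting is named. Intervals are 95% intervals. The p-values set the difference between genotypes against the spread between the 3 samples of a group, estimated with information shared over all genes. That spread may in part be technical. The smallest exact permutation p with 3 against 3 is 0.1, so no such test was run. Of 16 alternatives, 2 changed the test, to DESeq2 1.42.0 and to limma-voom (limma 3.58.1), and the others changed the scaling, filter or dispersion, added the replicate block or left out 1 mouse each. Code was tested on simulated data.

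The members and lists were chosen with earlier results of these data known. Besides the 10 genes, those named are *Shmt2*, up to 3 genes called in each direction per list, fixed regulators whatever their values, and the 3 genes most like *Pck1*, *G6pc* and *Igfbp1* with a mean of at least 1 log2 CPM. The rule also picked 1 gene that is not reported here. Levels per kb divide CPM by summed exon length. The floor of 3 counts came to 0.0880 to 0.130 CPM per library, and covers counting error only. Replicates of a group differed by far more than counting noise (chi-square per gene 26.9 to 153).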

Additional observations from a re-analysis of the deposited data

How the results depend on the processing

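Of the 10 genes, *Irs2*, *Ppargc1a*, *Pcx* and *Igfbp1* kept their direction in all 16 alternatives, and none of the 7 genes not called was called in any. By library size alone, 1 of the 10 genes was called higher, log2 fold changes turned to −0.31 (*Fbp1*), −0.20 (*Foxo1*), −0.36 (*Crtc2*), −0.0055 (*Hnf4a*), −0.17 (*Nr3c1*) and −0.039 (*Cebpb*), and 539 of all genes were called higher and 4923 lower. In the lists it called 4 glucose pathway genes higher, 0 insulin signalling genes higher and 10 lower, 6 FoxO genes lower, 1 glucagon and cAMP gene higher and 5 lower, and 1 IGF gene higher and 4 lower. Under ERCC scaling 0 of the 10 genes were called higher, 107 of all genes were called higher, and the lists had 1 glucose pathway gene higher and 1 lower, 0 insulin signalling, 0 FoxO, 0 glucagon and cAMP and 0 IGF genes higher, 2 glucagon and cAMP and 4 IGF genes lower, and 2 lipogenic genes higher. ERCC scaling reversed *Akt2* (−0.30), *Cebpb* (−0.10), *Crtc2* (−0.67), *Fbp1* (−0.68), *Foxo1* (−0.39), *Gcgr* (−0.10), *Hnf4a* (−0.27), *Igf1* (−0.26), *Insr* (−0.27), *Irs1* (−0.15), *Nr3c1* (−0.44), *Pik3cb* (−0.18), *Pik3r1* (−0.14), *Slc37a4* (−0.10) and *Srebf1* (−0.24). Both scalings move the median of all genes by −0.42 and −0.72 from its TMM value. With upper-quartile scaling *Crtc2* was at −0.023, 4 FoxO and 2 glucagon and cAMP genes were called lower and 1 IGF gene higher. Without a filter beyond 1 count, 0 of the 10 genes were called lower (29420 genes tested), with 1 glucose pathway gene and 2 glucagon and cAMP genes lower, 1 IGF gene higher and 5 lipogenic genes higher. DESeq2 called 2 glucagon and cAMP genes lower, and a minimum of 10 counts in every sample left 1 IGF gene higher. The cause of these changes was not tested.

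With 1 mouse left out at a time, 1 to 2 of the 10 genes were called higher and 0 to 1 lower, and 805 to 2521 of all genes higher and 1621 to 3076 lower, the lowest counts being those without SHMT2 fl/fl mouse 3. Without SHMT2 fl/fl mouse 1 they were 936 and 1763, without SHMT2 fl/fl mouse 2 861 and 1686, and without SHMT2 HKO mouse 2 1129 were called higher. Called higher were 5 to 14 glucose pathway, 1 to 4 insulin signalling, 2 to 5 FoxO, 1 to 4 glucagon and cAMP, 1 to 2 IGF and 4 to 9 lipogenic genes, and called lower, in the same order, were 1, 2 to 4, 1 to 5, 1 to 3, 2 and 0. Log2 fold changes ranged from −0.27 to 0.26 for *G6pc*, −0.31 to 0.082 for *Pck1*, −0.17 to 0.22 for *Foxo3*, −0.18 to 0.66 for *Cebpb* and −0.087 to 0.63 for *Irs1*. The replicate number as a block left the 10 genes at 2 higher and 1 lower and gave 1397 higher and 2187 lower of all genes, with 9 glucose pathway genes higher and 1 lower and 1 IGF gene higher. The numbers were not taken as pairs, since deviations of same-numbered mice correlated at −0.046, 0.013 and −0.077, and only mouse 2 matched best with its own number. Depth limits *Irs1* most, at 58 to 151 counts a library, and *Ppargc1a* at 141 to 438, whereas the 4 enzyme genes had 2605 counts or more.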
